A study of Mus musculus with 4 samples.

Results

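The receptors of the interferons (IFNs), the Janus kinases (JAKs) bound to them and 2 suppressors of cytokine signalling that act on these kinases were followed in endothelial cells (ECs) losing ADAR1. The genes were given by name: *Ifnar1*, *Ifnar2*, *Ifngr1*, *Ifngr2*, *Jak1*, *Jak2*, *Tyk2*, *Socs1* and *Socs3*. They are 9 of the 24421 genes of the count tables, and 981 of the 1205261 sites of the site table lie in or next to them. The ECs, selected on CD31 and ICAM-2 beads and kept in culture, came from the lungs of 2 male C57/BL6 mice, 2 wk old and of separate litters, named EC1 and EC2. Both carried an inducible, EC-specific ADAR1 knockout (i-KO), in which tamoxifen activates Cre and the floxed end of *Adar* is removed. The Cre driver of this line is not given in the sources used here. From each mouse, 1 culture received 4-OH-tamoxifen (TM) and 1 was left without it (CON), so that n = 2 libraries per group, with a CON and a TM culture of the same animal. CON cells carried the same floxed alleles and Cre as TM cells, and no cells without the knockout alleles received tamoxifen here, so an effect of the drug itself and an effect of losing ADAR1 cannot be told apart.

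Type I IFN binds the IFNAR1 and IFNAR2 chains, which carry TYK2 and JAK1, and the kinases phosphorylate STAT proteins that form, with IRF9, the factor that binds the ISRE motif of IFN-stimulated genes (ISGs). Type II IFN (IFN-γ) binds IFNGR1 and IFNGR2, which carry JAK1 and JAK2, and the STAT dimers it activates bind the GAS motif. SOCS1 and SOCS3 are made in response to such signals, bind the kinases or the receptor chains, and limit how long the signal lasts.

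Levels were read in 2 ways. The deposited counts on genes came to 1095488 to 1778732 per library, only 0.823% to 0.858% of all reads in the count tables, and for these 9 genes the count was 0.0687% to 2.02% of the read pairs implied by depth and exonic length. The library kit keeps the strand and the default counting takes reads of one orientation, and whether the orientations match was not tested. The other measure was exonic depth, the median number of reads (reference plus altered) over the exonic sites that a library lists for a gene. It is a level per base, so genes can be compared, but a site is listed only in those libraries that showed an altered base there, so the positions read differ between libraries. Over *Adar* exons 12 to 14, which the deletion removes, EC1 CON listed 3 sites with a median of 145 reads and EC1 TM none, and EC2 CON listed 1 site of 169 reads and EC2 TM 2 with a median of 65.5. The endothelial markers summed to 1380 and 1120 counts per 1000000 counts on genes (CPM) in CON and 1290 and 1380 in TM, with none of the 8 tested called in the counts. Of 7 leukocyte markers, *Ptprc*, *Adgre1*, *Itgam* and *Cd3e* had at most 1 count in any library, while *Csf1r* had 50 to 63 and *Cd68* 10 to 39. The list summed to 49.1 to 68.4 CPM in CON and 51.7 to 74.8 in TM, most of it from *Csf1r* and *Cd68*. Exonic depth gave another picture. *Csf1r*, despite its counts, listed only 1 exonic site, of 7 reads and in TM of EC2. *Lyz2* had no count, yet its depth was 14 and 41 reads in CON (EC1, EC2) and 17.5 in TM of EC2. *Cd68* was at 35 reads in CON and 27.5 in TM of EC1, and at 48 in TM of EC2. A library without a listed site is not thereby at a depth of 0. The epithelial list summed to 1.64 to 6.18 CPM, and the list of fibroblasts and smooth muscle to 479 to 562, most of it from *Tagln* (534 to 761 counts).

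The stretch of 250 bases before the RefSeq start of each gene (build GRCm38.p6) was searched on both strands for the ISRE core GAAANNGAAA, bound by the complex of STATs and IRF9, and for the GAS core TTCNNNGAA, bound by STAT dimers. All 9 genes had such a stretch. The ISRE core was found in *Socs1* only, which held it 2 times with an overlap, against 2.98% of the 32851 stretches of the whole table. The GAS core was found in *Ifnar2*, as TTCCTGGAA at 214 to 206 bases before the start, and in *Socs3*, as TTCTTAGAA at 154 to 146 bases, against 7.02% of all stretches. The *Socs3* stretch (chr11:117969367-117969616) lies before its RefSeq start but inside the gene as placed by GENCODE vM21 (chr11:117966079-117970047, minus strand). A match of letters is not a binding site, and no match in *Jak2* says only that these letters are not in this window. The stretches below are those of the negative regulator whose counts were highest relative to CON, of the receptor chain whose direction differed between the mice, and of the kinase whose depth rose, with the motif letters in capitals.
Socs1, chr16:10785537-10785786, minus strand: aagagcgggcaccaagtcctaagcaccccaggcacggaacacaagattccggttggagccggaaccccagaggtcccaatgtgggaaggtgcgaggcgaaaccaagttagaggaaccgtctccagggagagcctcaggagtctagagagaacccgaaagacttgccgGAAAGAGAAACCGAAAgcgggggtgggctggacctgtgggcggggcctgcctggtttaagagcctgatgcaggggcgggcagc
Ifnar2, chr16:91372533-91372782, plus strand: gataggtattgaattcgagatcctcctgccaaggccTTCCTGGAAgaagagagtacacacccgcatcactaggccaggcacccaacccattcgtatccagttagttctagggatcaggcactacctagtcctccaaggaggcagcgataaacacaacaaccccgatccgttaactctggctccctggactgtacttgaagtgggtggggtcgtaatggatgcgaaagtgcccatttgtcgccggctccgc
Jak2, chr19:29251553-29251802, plus strand: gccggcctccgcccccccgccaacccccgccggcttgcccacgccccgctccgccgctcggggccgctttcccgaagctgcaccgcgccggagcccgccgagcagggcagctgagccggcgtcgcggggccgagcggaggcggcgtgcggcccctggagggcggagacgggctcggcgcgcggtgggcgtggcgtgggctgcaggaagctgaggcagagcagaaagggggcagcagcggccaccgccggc

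In exonic depth, *Jak2* rose with TM, *Ifnar1*, *Ifngr2* and *Socs3* fell, and *Ifnar2*, *Ifngr1*, *Jak1* and *Tyk2* did not pass the test. Depths were placed on the log2 scale, each library was centred on its median gene, and TM was compared with CON by limma with Benjamini-Hochberg adjustment over the 6836 genes with at least 3 listed exonic sites in every library. Of the 9 genes, 8 could be tested, with 1 called higher against 8.31% of all genes tested and 3 called lower against 12.8%. The median log2 difference was -0.36 over these 8 genes and -0.06 over all genes. *Socs1* had no listed exonic site in either CON library and was not tested. Without centring, on depth per 100000000 reads, *Jak2* (6.39% of all genes called higher) and *Socs3* (5.44% called lower) kept their calls and *Ifnar1* and *Ifngr2* lost theirs, and the calls over all genes went from 39.4% higher to 54.0% higher.

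**Figure D1:**
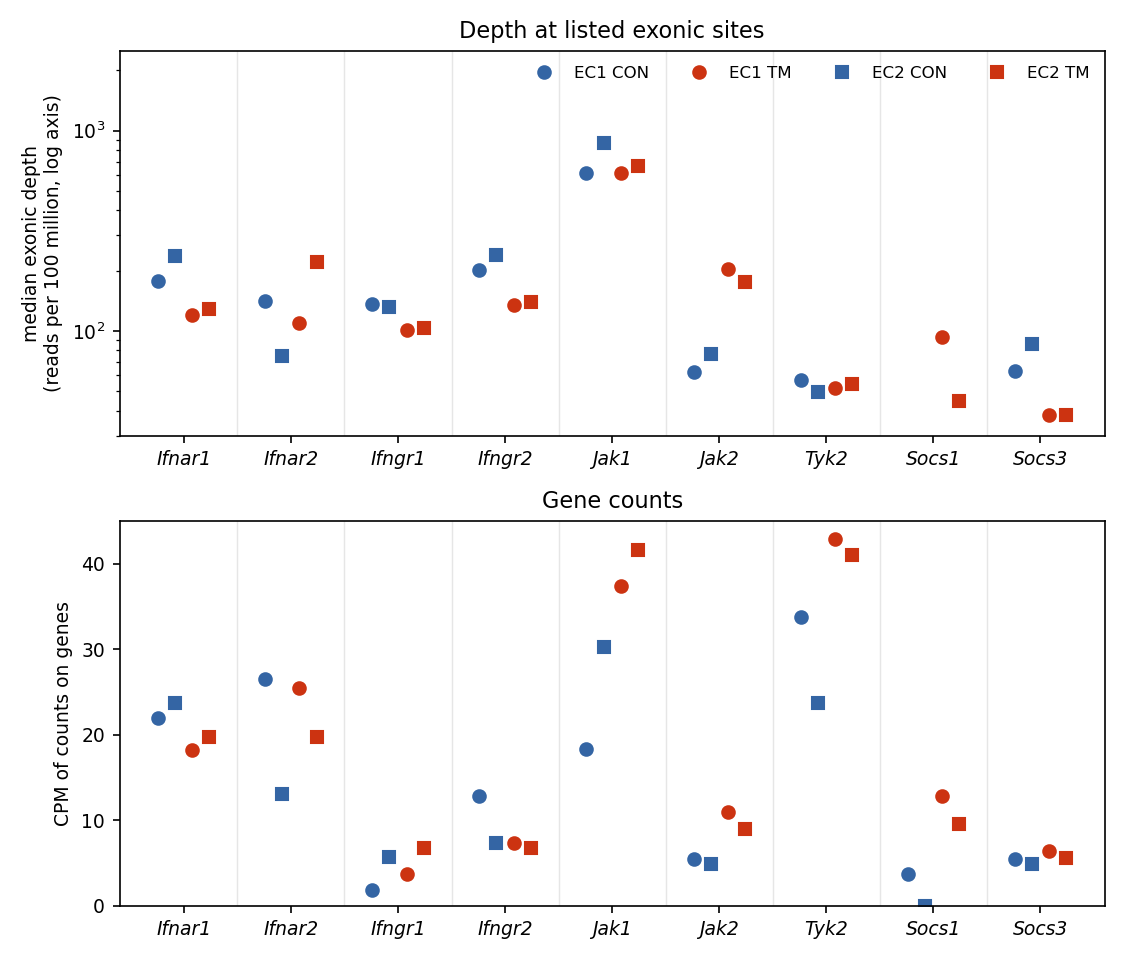
Levels of the 9 genes in each library. Top, median exonic depth in reads per 100000000 reads of the count table total (log axis). Bottom, CPM of counts on genes. Circles are EC1, squares EC2, blue CON and red TM. *Jak2* TM values lie above both CON values in both panels, while *Socs1* has no depth value in CON because no exonic site was listed there.

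*Jak2*, the kinase of the IFN-γ receptor chain IFNGR2 and of many cytokine and growth factor receptors, lies on chr19:29251828-29313080 (plus strand, mm10). In EC1 its median exonic depth went from 83 reads over 11 sites in CON to 267.5 over 34 sites in TM, and in EC2 from 110 over 8 sites to 364.5 over 42 sites. Both TM values were well above both CON values. TM was higher than CON by 1.37 ± 0.19 on the log2 scale (fit ± standard error, here and for other fits, adjusted p = 0.00582, limma), and within the mice the log2 difference was 1.56 in EC1 and 1.19 in EC2. The call was also made with each library left out in turn, at 1.17 to 1.58. With introns included, where EC1 CON listed 32 intronic sites beside the 11 exonic ones, the difference was 3.44 and did not pass (adjusted p = 0.264, limma). Counts on *Jak2* went from 6 to 12 in EC1 and from 6 to 16 in EC2, without passing the test (0.86 ± 0.66 on the log2 scale, adjusted p = 0.52, edgeR).

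Some positions carried the altered base in every read of every library that listed them, with at least 2 libraries listing each. Whether they are genomic differences from the reference or edited bases was not tested. They serve here only to read depth and are not taken as editing. Where all 4 libraries listed a position, it could be read in CON and TM alike. In *Jak2* 1 such position lay in the coding part of exon 12 of 24 (chr19:29291248-29291248, A-to-G), where CON and TM had 38 and 124 reads in EC1 and 70 and 232 in EC2. Per read sequenced, TM held 3.29 times as many reads as CON in EC1 and 2.29 times in EC2. A further 33 such positions lay in *Jak2* introns and held in sum 108 reads in CON and 206 in TM of EC1, and 42 and 173 in EC2, or 1.93 and 2.85 times the CON value per read sequenced. Only 18 of the 33 were listed in all 4 libraries, so these sums do not cover the same positions in each library. The intronic reads thus also stood higher in TM within each mouse, but the CON cultures differed, with 81.2 in EC1 and 29.3 in EC2 per 100000000 reads, and the 83.4 of EC2 TM was close to the value of EC1 CON. At 10 further positions next to the *Jak2* gene the mice went opposite ways, on 9 to 17 reads in sum per library, at 1.56 times CON in EC1 and 0.769 times in EC2. Only 1 of these 10 was listed in all 4 libraries. *Socs3* held 1 such position in its 3′ UTR, with 77 and 48 reads in EC1 and 109 and 79 in EC2, 0.629 and 0.502 times CON per read sequenced. *Tyk2* held 2 in coding exons, summing to 117 and 132 reads in EC1 and 156 and 212 in EC2, 1.14 and 0.941 times CON. At 7 positions in *Tyk2* introns the sums were 56 and 33 reads in EC1 and 27 and 38 in EC2, 0.595 and 0.974 times CON. In a limma fit over the 1195 genes with an exonic position altered in over 95% of the reads of all 4 libraries, an alternative chosen after the data were seen, *Jak2* was called higher by 1.54 on the log2 scale (adjusted p = 0.00261), against 10.1% of genes, and *Socs3* lower at -0.75 (adjusted p = 0.0427), against 8.28%. *Tyk2* was at 0.13 (adjusted p = 0.632).

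**Figure D2:**
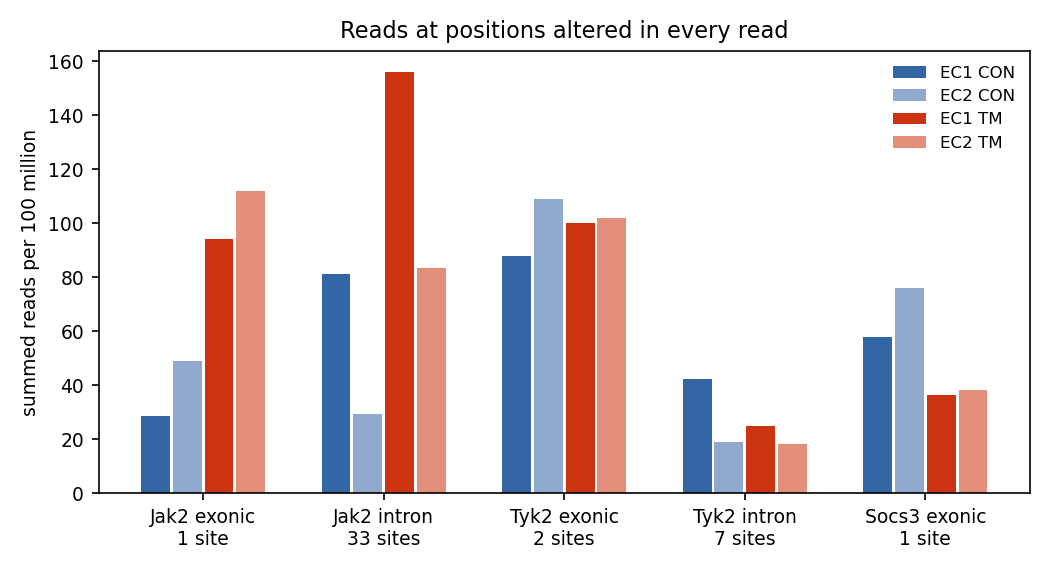
Reads, summed over positions and scaled to 100000000 reads of the count table total, at positions where every read carried the altered base in each listing library. Dark bars are EC1, light bars EC2, blue CON and red TM, and a library that did not list a position counts 0 there. *Jak2* bars are higher in TM in both mice, *Socs3* bars lower, *Tyk2* exonic bars are near equal, and the *Tyk2* intronic bar is lower in TM of EC1.

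*Ifnar1*, the signalling chain of the type I receptor that carries TYK2, lies on chr16:91485238-91507441 (plus strand). Its exonic depth was 235 reads over 33 sites in CON and 158 over 24 in TM of EC1, and 338.5 over 48 and 268 over 29 in EC2. Both TM values were lower than those of CON relative to the median gene, 0.953 and 0.893 times that gene against 1.55 and 1.64 times. The fitted log2 difference was -0.79 ± 0.14 (adjusted p = 0.0147, limma), with -0.70 in EC1 and -0.88 in EC2. *Ifngr2*, the chain of the IFN-γ receptor that carries JAK2, lies 39.6 kb further along the same chromosome. It had 269 reads over 10 sites in CON and 177 over 11 in TM of EC1, and 341 over 19 and 287.5 over 20 in EC2. The groups were apart in the same way relative to the median gene, at -0.76 ± 0.15 (adjusted p = 0.0172, limma), with -0.73 and -0.79 in EC1 and EC2. Both calls depended on the centring: per 100000000 reads *Ifnar1* was at -0.71 (adjusted p = 0.0982, limma) and *Ifngr2* at -0.68 (adjusted p = 0.109, limma). Both were also lost without EC2 TM (*Ifnar1* adjusted p = 0.0529, *Ifngr2* adjusted p = 0.0619, limma), and *Ifnar1* without EC2 CON (0.0629) and *Ifngr2* without EC1 CON (0.0732). Restricted to *Ifnar1* positions that CON and TM of a mouse both list, the value was -0.80 ± 0.52 (adjusted p = 0.365, limma). Several endothelial markers stood lower in the same fit, with 4 of 9 tested called lower, against 12.8% of all genes tested, and none higher, against 8.31%. Of these 4, 3 were *Erg* at -0.79, *Tie1* at -0.77 and *Icam2* at -0.74 on the log2 scale. Some markers of fibroblasts and smooth muscle also had lower depth in TM, though of their 9 only *Tagln* could be tested (-0.86, adjusted p = 0.0686, limma). Per 100000000 reads *Dcn*, a matrix proteoglycan, had a depth of 255 in CON and 92.9 in TM of EC1 and 311 and 104 in EC2. *Col1a1*, a chain of type I collagen, was at 54.1 and 18.2 in EC1 and at 82.2 and 36.2 in EC2, and *Acta2*, smooth muscle actin, at 194 and 24.6 in EC2, with no listed site in EC1 TM. Other markers of that list went the other way on few reads. *Pdgfra* was at 2.09 and 11.1 in EC2, with no listed site in EC1 CON. *Myh11* was at 2.25 and 5.69 in EC1, but at 4.88 and 2.89 in EC2. In counts *Acta2* stood higher in TM, at 30.1 and 39.2 CPM in EC1 and 27.0 and 30.9 in EC2. The part of these marker lists in the receptor values was not tested, and in bulk RNA fewer cells of a type and less RNA per cell cannot be told apart.

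*Ifngr1*, the chain that binds IFN-γ and carries JAK1, was at 181.5 reads in CON and 133 in TM of EC1 and at 189 and 216.5 in EC2, over 7 to 10 sites. Relative to the median gene both TM values were below both CON values, with a log2 difference of -0.46 ± 0.19 that did not pass the test (adjusted p = 0.137, limma). *Ifnar2*, the chain of highest affinity for type I IFN, which carries JAK1, had 187 reads over 6 sites in CON and 143 over 7 in TM of EC1, but 108 over 9 and 460 over 17 in EC2. The mice went opposite ways, with a log2 difference of -0.51 in EC1 and 1.55 in EC2. The fitted difference was 0.52 ± 0.44 (adjusted p = 0.446, limma), and its sign rested on EC2 CON, without which it was -0.10. The mouse genes *Ifnar2*, *Il10rb*, *Ifnar1* and *Ifngr2* follow each other on chromosome 16 in this order, all on the plus strand, with gaps of 0.575, 59.4 and 39.6 kb. The exonic depth of *Il10rb*, which is shared by the IL-10 and type III IFN receptors, was 100 and 82.5 reads in CON and TM of EC1 and 168 and 199 in EC2, from too few sites for the test.

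*Jak1*, the kinase used by both IFN receptors, had the highest exonic depth of the 9 genes in every library. It had 814 reads over 70 sites in CON and 810 over 93 in TM of EC1, and 1240 over 102 and 1380.5 over 118 in EC2. TM differed from CON by -0.26 ± 0.13 on the log2 scale (adjusted p = 0.191, limma), below 0 in both mice. *Tyk2*, the kinase of IFNAR1, was at 76 reads over 9 sites and 68.5 over 8 in EC1, and at 71 over 13 and 113 over 23 in EC2. The difference was -0.07 ± 0.25 (adjusted p = 0.855, limma), with -0.27 in EC1 and 0.13 in EC2, and its sign turned under several alternatives. Of the 3 kinases, 1 was therefore called.

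**Figure D3:**
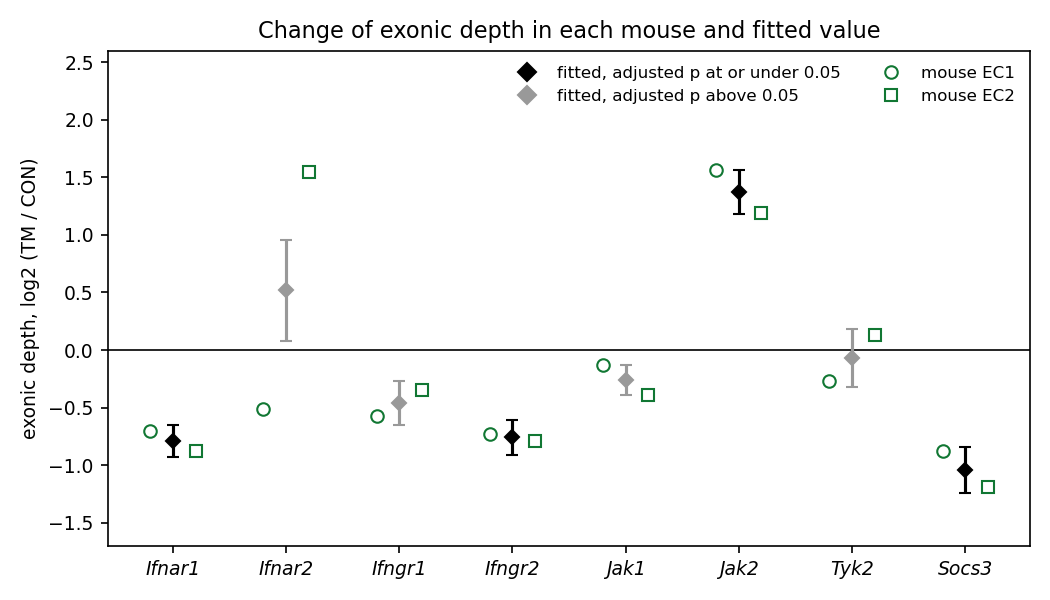
Log2 difference in exonic depth between TM and CON, each library centred on its median gene, for the 8 testable genes. Open circles and squares are the differences in EC1 and EC2, diamonds the limma estimate with its standard error, black where the adjusted p was at or under 0.05. *Jak2* is above 0 in both mice, *Ifnar1*, *Ifngr2* and *Socs3* are below 0 in both, and the *Ifnar2* points lie on either side of 0.

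The 2 suppressors could be tested in different measures only, *Socs3* in depth and *Socs1* in counts, so their values cannot be set against each other. *Socs3*, which binds JAKs and receptor chains such as gp130, had 84.5 reads over 4 sites in CON and 50 over 5 in TM of EC1, and 124 over 10 and 79 over 9 in EC2. Both TM values were the lower ones relative to the median gene, 0.302 and 0.263 times it against 0.556 and 0.602 times. The log2 difference was -1.04 ± 0.20 (adjusted p = 0.0172, limma), and the adjusted p rose to 0.064 without EC2 TM, to 0.0712 without EC2 CON and to just over 0.05 without EC1 CON. Counts on *Socs3* were 6 and 7 in EC1 and 6 and 10 in EC2 and did not pass the filter on low counts. *Socs1*, the suppressor that binds JAKs and is itself an ISG, listed no exonic site in CON, 3 sites of 53 to 171 reads in EC1 TM and 5 sites of 63 to 184 reads in EC2 TM. Each of these sites carried only 1 or 2 altered reads, and the lack of a listed site in CON is not a depth of 0. Counts on *Socs1* (chr16:10782240-10785536, minus strand) were 4 in CON and 14 in TM of EC1. In EC2 they were 0 in CON, which allows up to 2.45 CPM, and 17 in TM. Both TM counts were above both CON counts, and the gene passed the filter only through TM. The fitted log2 difference was 2.55 ± 0.86 and missed the threshold (adjusted p = 0.0637, edgeR). With the mouse as a replicate block it was 2.71 and passed in edgeR (adjusted p = 0.0184). In DESeq2 the adjusted p was 0.496 without the block, and with it the unadjusted p was 0.0493 and no adjusted p was given for so low a count. Since a gene of so few CON counts enters the test only by being high in TM, the blocked call is given as a value and not as support for a change. With a library left out it was not called. The fitted value was then 1.61 without EC2 CON, and 6.88 without EC1 CON, when the only CON library left had no count and the size is not defined.

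In the gene counts, edgeR's quasi-likelihood test called none of the 6 genes that passed its filter on low counts, against 4.39% of the 7899 genes tested called higher and 3.35% called lower, and *Socs1* alone of the 6 had an unadjusted p under 0.05. DESeq2 called none of the 9 and gave none an unadjusted p under 0.05, which 1100 genes in all had. With the replicate block in edgeR *Socs1* was the 1 of the 6 called higher, against 7.60% of genes, and 0 were lower, against 7.39%. With the block in DESeq2 0 of the 4 genes given an adjusted p were called. *Jak1* had 20 and 41 counts in CON and TM of EC1 and 37 and 74 in EC2, a log2 difference of 0.62 ± 0.40 (adjusted p = 0.413, edgeR), opposite in sign to its exonic depth. *Tyk2* had 37 and 47 counts in EC1 and 29 and 73 in EC2 (0.50 ± 0.38, adjusted p = 0.511, edgeR), and 554 of its exonic bases are shared with *1700084C06Rik* on the opposite strand. *Ifnar1* had 24 and 20 counts in EC1 and 29 and 35 in EC2, at -0.32 ± 0.44 (adjusted p = 0.758, edgeR). *Ifnar2* had 29 and 28 in EC1 and 16 and 35 in EC2, at 0.15 ± 0.45 (adjusted p = 0.914, edgeR). *Ifngr1*, with 2 and 4 counts in EC1 and 7 and 12 in EC2, and *Ifngr2*, with 14 and 8 in EC1 and 9 and 12 in EC2, did not pass the filter.

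Exonic depth, a level per base, can be set beside each other between genes. In CON the order of exonic depth relative to the median gene was *Jak1* (5.36 and 6.02 times it in EC1 and EC2), *Ifngr2* (1.77 and 1.66), *Ifnar1* (1.55 and 1.64), *Ifngr1* (1.19 and 0.917), *Ifnar2* (1.23 and 0.524), *Socs3* (0.556 and 0.602), *Jak2* (0.546 and 0.534) and *Tyk2* (0.50 and 0.345). *Ifngr2* and *Ifnar1* lay close together, *Ifngr1* and *Ifnar2* overlapped, and *Socs3* and *Jak2* were nearly level. In TM *Jak1* was at 4.89 and 4.60 times the median gene and *Jak2*, at 1.61 and 1.21 times, came next in EC1, while in EC2 *Ifnar2* was above it. *Ifnar2* (0.863 and 1.53), *Ifngr2* (1.07 and 0.958), *Ifnar1* (0.953 and 0.893) and *Ifngr1* (0.802 and 0.722) followed without clear gaps, and *Tyk2* (0.413 and 0.377) and *Socs3* (0.302 and 0.263) were lowest. *Jak2* was above *Tyk2* in every library, by more in both TM libraries than in either CON library.

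The exonic depth profile of *Jak2* over the 4 libraries was most like those of *Nr3c1*, the glucocorticoid receptor, *Trim25*, a ubiquitin ligase of the RIG-I pathway, and *Cmtr1*, a cap methyltransferase, by Euclidean distance between centred log2 profiles (0.066, 0.079 and 0.10) among 6835 other genes. That of *Socs3* was most like those of *Unc5b*, a netrin receptor, *Mtch1*, a mitochondrial membrane protein, and *Dusp3*, a phosphatase that acts on STATs (0.040, 0.062 and 0.073). These distances rest on 4 values each and describe the libraries only.

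On the ligand side, none of the 21 IFN genes passed the count filter, and 15 of them had no count in any library. *Ifnb1*, the IFN-β gene, was among these 15, yet the site table listed 3 exonic sites of 111 to 127 reads in EC1 TM and 3 of 153 to 352 reads in EC2 TM and none in CON. *Ifng* and the type III genes *Ifnl2* and *Ifnl3* had neither a count nor a listed exonic site. *Jak3*, the kinase of lymphocytes, had 3 and 1 counts in CON and TM of EC1 and 8 and 8 in EC2, and *Ifnlr1*, the specific chain of the type III receptor, had 1 count in all.

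Downstream of the kinases, 3 of 5 tested STAT and IRF9 genes rose in exonic depth, against 8.31% of all genes tested, and 0 fell, against 12.8%. The median log2 fold change of these 5 was 0.69 against -0.06 over all genes. *Stat2* went from 98 and 117 reads in CON (EC1 and EC2) to 939 and 1436 in TM, a log2 difference of 3.11 (adjusted p = 0.000147, limma). *Irf9* was at 1.63 (adjusted p = 0.00195, limma) and *Stat6*, the STAT of IL-4, at 0.69 (adjusted p = 0.0324, limma). *Stat3*, which SOCS3 limits, was at 0.27 (adjusted p = 0.229) and *Stat5b* at 0.19 (adjusted p = 0.615). In counts 3 of 6 STAT and IRF9 genes rose, against 4.39% of all genes tested, and 0 fell, against 3.35%. Of these, *Stat2* (9 and 9 counts in CON) and *Irf9* (1 and 2) entered the count test only by being high in TM.

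Among 20 ISGs, all 10 that could be tested in exonic depth rose (median log2 fold change 4.76), against 8.31% of all genes tested. In counts 14 of 17 rose, against 4.39% of all genes tested (median 4.72, or 3.59 with the 7 genes of at most 3 counts in each CON library at their lower bound). Those 7 genes, and others with low CON counts, entered the count test only by being high in TM, so their calls are not support for a change. *Rsad2*, which encodes viperin, led in depth at 7.11 (adjusted p = 2.79e-05, limma). Of the other SOCS genes 0 of 3 were called in counts and 0 of 3 in depth. Negative regulators outside the SOCS family included 3 of 12 that rose in depth, against 8.31% of all genes tested, and 1 that fell, against 12.8%. These were *Usp18*, which binds IFNAR2 and blocks JAK1 there, at 5.23 (adjusted p = 0.000414), *Isg15*, a ubiquitin-like protein that USP18 removes from its targets, at 4.53 (adjusted p = 2.79e-05), *Ptpn2*, a phosphatase of JAK1, at 1.13 (adjusted p = 0.0150), and *Dusp3*, at -1.0 (adjusted p = 0.00618), all from limma. *Usp18* and *Isg15* also belong to the ISG list. In counts only *Isg15* of 11 rose, against 4.39% of all genes tested, and none fell, against 3.35%. With 1 and 6 counts in CON, *Isg15* too entered the count test only by being high in TM. *Usp18* had 34 and 19 counts in CON and TM of EC1 and 29 and 45 in EC2. Its fitted value in counts was -0.38 ± 0.42 (adjusted p = 0.685, edgeR), opposite in sign to its depth. In counts *Ptpn2* was at 0.03 (adjusted p = 0.986) and *Dusp3*, as in depth, below 0 at -1.18 (adjusted p = 0.14), both from edgeR. Among the other receptors that use these JAKs, 1 of 9 rose and 2 fell in depth, few genes to set against the 8.31% and 12.8% of all genes tested. These were *Osmr*, the oncostatin M receptor, at 1.55 (adjusted p = 0.0047), *Lepr*, the leptin receptor, at -0.87 (adjusted p = 0.0415), and *Il6st*, which encodes gp130 and is named after its value was seen, at -0.65 (adjusted p = 0.0183), all from limma. In counts 0 of 7 rose, against 4.39% of all genes tested, and 1 fell, against 3.35%, the IL-6 receptor *Il6ra* (-1.69, adjusted p = 0.017, edgeR).

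**Figure D4:**
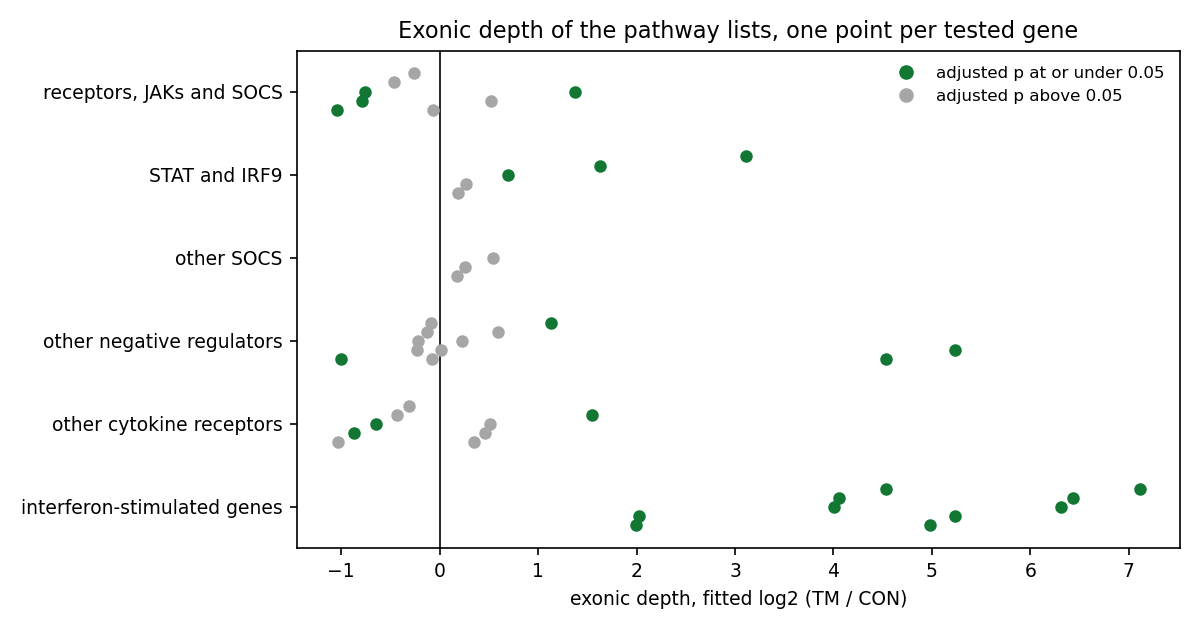
Fitted log2 difference in exonic depth, TM over CON, for each tested gene of the pathway lists, 1 row per list with points offset for clarity. Green points had an adjusted p at or under 0.05 (limma, over all 6836 genes tested). All 10 tested ISGs lie at 1.99 or above, while the receptors, JAKs and SOCS lie between -1.04 and 1.37.

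ADAR1 edits adenosine to inosine, read as A-to-G (T-to-C on minus-strand genes), mostly in repeats of transcripts. Of the 981 sites in the 9 genes, 710 were exonic, 214 intronic and 57 outside the gene body, and 90 lay in SINE repeats. They include the positions above that were altered in every read, and a listed site is not by itself an edited one. Only 9 sites met the criteria of the study in at least 1 library (5 or more reads, of which 3 or more altered, and a rate of 0.05 to 0.95): 5 in *Ifnar1*, 2 in *Ifngr1*, 1 in *Ifnar2* and 1 in *Jak2*. By library, 3 to 5 sites passed, 1.35% to 1.87% of the sites at 5 or more reads in these genes, against 3.44% to 4.16% over all sites. A rate at least 0.05 higher in CON was found at 2 sites in EC1 and 3 in EC2, against 1.34% and 1.12% of 518108 and 554420 sites in all, for 446 and 560 sites of these genes. A rate higher in TM was found at 3 sites in EC1 and 1 in EC2, against 0.880% and 1.0%. No site met either criterion in both mice. Fisher's exact test on reads, which compares libraries and not conditions, called 0 sites of these genes in either mouse after adjustment. The adjustment ran over all sites that both libraries of a mouse list, 83783 in EC1 and 87836 in EC2. The share of these that was called is not reported here.

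These sites are named after their values were seen. An *Ifnar1* site (chr16:91510289-91510289), placed in the 3′ UTR by the study and 2848 bases past the end of the gene in GENCODE vM21, was the only one to pass in all 4 libraries. In EC1 it had 7 altered of 104 reads in CON (6.73%, 95% Wilson interval 3.30% to 13.2%) and 6 of 55 in TM (10.9%, 5.10% to 21.8%). In EC2 it had 11 of 112 in CON (9.82%, 5.57% to 16.7%) and 10 of 93 in TM (10.8%, 5.95% to 18.7%). These intervals, which cover counting error only, overlap throughout. Within *Ifnar1*, a B3 element held a site (chr16:91490702-91490702) altered in 7 of 24 reads in CON and 1 of 21 in TM of EC1, but in 2 of 19 and 3 of 22 in EC2. In the B2 element beside it, a site (chr16:91490448-91490448) had 1 of 15 and 3 of 14 reads altered in EC1 and 4 of 15 and 2 of 13 in EC2. GENCODE vM21 places both in an exon of the noncoding transcript Ifnar1-205, and the study in an intron. The B2 site of *Ifngr1* (chr10:19597901-19597901, intron) went from 6 of 12 reads in EC2 CON to 3 of 15 in EC2 TM, and from 1 of 16 in EC1 CON to 2 of 9 in EC1 TM. A B1 site of *Ifngr1* (chr10:19608715-19608715, intron) had 1 of 3 reads altered in EC1 CON and 3 of 5 in EC2 CON and was not listed in TM. The *Jak2* site (chr19:29277574-29277574, intron) was lower in TM in both mice, on few reads. It had 6 of 7 and 8 of 14 reads altered in CON and TM of EC1, and 2 of 2 and 3 of 8 in EC2. Fisher's exact test thus detected no difference in editing in the 9 genes, and the B3 site in EC1 had the lowest unadjusted p of those sites tested (0.051). Of the 9 sites that passed, 7 had under 25 reads in every library, so the lack of a call does not show that editing was unchanged.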

How the data were processed

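Both cultures of each mouse came from the same animal, and deviations from the group means correlated between CON and TM of a mouse (r = 0.163 over genes in counts, 0.10 in depth). Per the labels, the authors used Trimmomatic 0.38 for trimming, STAR 2.6.1a for alignment to mm10 and HTSeq 0.11.2 under default settings for counting. They deposited raw counts per gene without normalization, and a site table of reference and altered read counts with the editing rate as a fraction, 0 where a library lists no site. Columns of that table were matched to libraries through a supplementary table of equal values. Summary rows of the count tables were left out (92.8% to 93.9% of reads on no gene, 5.29% to 6.32% not unique). Counts were tested with edgeR 4.0.16 (filterByExpr, TMM, condition only) and depth with limma 3.58.1 (trend), with Benjamini-Hochberg adjustment at 0.05. DESeq2 1.42.0, the replicate block and other settings were alternatives. Fisher's exact test was run in scipy 1.17.1. Gene positions are from GENCODE vM21, not known to be the authors' annotation. On simulated counts with 200 of 7899 genes changed 4-fold, edgeR called 156 of them with 1 false call, and DESeq2 126 with 3. On simulated depth, also with 4-fold changes, limma called 197 of 200 among 6836 genes with 8 false calls. The simulated depth had the same spread in every gene and no difference in the positions listed. These results thus do not give the power or error for the smaller differences called here.

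The genes and lists were chosen with earlier results of these data known. Named outside the 9 genes were up to 3 genes per list called in either fit, largest change first, the ligands, *Jak3*, *Ifnlr1* and STAT genes, and the 3 nearest depth profiles of the 2 called genes with the largest change. For edited sites the rule, sites changed the same way in both mice, gave none. Some genes of the lists are not reported here.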

Additional observations from a re-analysis of the deposited data

Results flagged for a closer look

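For *Ifnar2* the direction in exonic depth differed between the mice, with a log2 difference of TM minus CON of -0.51 in EC1 and 1.55 in EC2. Its counts also moved apart, at -0.05 in EC1 and 0.55 in EC2 on the log2 scale of CPM plus 1. *Tyk2* had a log2 difference in exonic depth of -0.27 in EC1 and 0.13 in EC2. With 1 library of each condition per mouse, these differences between the mice were not tested.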

How the results depend on the processing

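In exonic depth, the number of genes called higher was 1 and fell to 0 over sites that CON and TM of a mouse both list, with introns included and with at least 10 exonic sites, of which the first and last left 3 genes testable and removed *Jak2*. The number called lower was 3 and was 1 per 100000000 reads, 0 over sites listed in both libraries, 0 with introns and 1 over positions altered in over 95% of reads, and ranged from 0 to 3 with a library left out. With introns included, *Socs3* was at -1.34 (adjusted p = 0.76, limma), *Ifnar1* at -1.41 (0.521) and *Ifngr2* at -1.10 (0.69). *Tyk2* in depth turned to 0.00 per 100000000 reads, 0.02 over sites listed in both libraries, 0.67 with introns, 0.01 with the mean of log2 depth and 0.13 over positions altered in over 95% of reads, and ranged from -0.34 to 0.20 with a library left out. *Ifnar2* ranged from -0.10 (without EC2 CON) to 1.13 in depth, and from -0.20 to 0.60 in counts, with a library left out. The cause of these changes was not tested, beyond the loss of testable genes. With the mouse as a replicate block, 1 gene (*Socs1*) was called higher in counts by edgeR in place of 0, but 0 by DESeq2, which with the block gave *Socs1* no adjusted p, and the block changed no call in depth.

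Of sites with a higher rate in CON, 2 in EC1 became 1 at a depth of 20 and 0 by Fisher's exact test, and 3 in EC2 became 0 by both. Of those higher in TM, 3 in EC1 became 1 at a depth of 20, 1 when both libraries had to list the site at 5 or more reads, and 0 by Fisher's exact test, and 1 in EC2 became 0 by all 3. Of the 9 sites, 7 had under 25 reads in every library.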
